A study of Mus musculus with 4 samples.

Results

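The sirtuins Sirt1 to Sirt7 and the poly(ADP-ribose) polymerases Parp1 and Parp2 consume NAD and release nicotinamide, which inhibits them. These 9 genes were taken by symbol from the array annotation, out of 24171 gene symbols on the array, and were read by 17 targets, each a transcript covered by 3 probes. Back skin of male BALB/c mice aged 8 weeks was treated 2 times a day for 5 days with creams. The Control group received an oil/water cream, the ATRA group a cream with 0.1% all-trans retinoic acid, the ATRA+NIC group this cream together with a nicotinamide cream, and the NIC group the nicotinamide cream alone. ATRA, made from vitamin A, acts through nuclear receptors, while nicotinamide is a form of vitamin B3. The concentration of nicotinamide is not given in the labels, and the number of mice behind an array is not stated. The series title speaks of epidermis, while the samples are labelled as skin.

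Sirtuins use NAD to remove acetyl and other acyl groups from lysines of histones, transcription factors and metabolic enzymes, and differ in their place in the cell. Parp1 and Parp2 sense DNA breaks and attach chains of ADP-ribose to proteins, an NAD-costly step of repair. Nicotinamide acts on the activity of these enzymes and is at the same time a precursor of their substrate NAD, so transcript levels do not measure the inhibition itself.

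With 1 array per group, differences have no replicate check, and neighbours in an order of levels cannot be told apart by a spread. Values are the authors' normalised intensities, and differences are on the log2 scale, where 1 is 2-fold. Probes differ in brightness, so levels are compared between arrays and not between genes. The random control probes, which match no transcript, read from 34.0 on NIC to 36.3 on ATRA+NIC, and a reading under 2 times that is called near background here. A symbol was kept for comparison when the mean of its targets reached the median of all targets on at least 1 array, which held for 14552 symbols. Of the 9 genes 8 were kept and Sirt6 was not. Sirt1 and Sirt4 reached the median only on the 2 nicotinamide arrays, and the other 6 on all 4 arrays. The filter thus let Sirt1 and Sirt4 in only where they were high, and counts over kept symbols are no support for their difference. Of the 17 targets 12 were at or above 2 times the random probes on all 4 arrays and 2 were near background on all 4. Keratinocyte markers were present: the 5 basal markers, Krt5 and Krt14 among them, summed to between 70921 and 83202 on the 4 arrays, and 0 of 5 read near background.

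Sirt1, a nuclear deacetylase of histones, p53 and FOXO factors, was higher on both arrays with nicotinamide, and the mean of no other member was 2-fold apart in any difference. Sirt1 read 77.9 on Control, 230.0 on NIC, 87.2 on ATRA and 261 on ATRA+NIC. It was at 2.28 times the random probes on Control and 2.51 times on ATRA, and at 6.77 times on NIC and 7.20 times on ATRA+NIC. The mean of Sirt4 was also higher on both nicotinamide arrays than on both others, and those of Sirt2 and Parp1 were lower. The target of Sirt1, BC152314, spans chr10:62781808-62801765 on build MM9. Sirt1 was 2.95-fold higher on NIC than on Control and 3.00-fold higher on ATRA+NIC than on ATRA, differences of 1.56 and 1.58 from pairs of arrays that share none. ATRA made little difference in either setting, at 0.16 without nicotinamide and 0.18 with it.

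As background, 5.33% of kept symbols were at least 2-fold higher in NIC minus Control and 5% in ATRA+NIC minus ATRA. In both 129 symbols, 0.886%, were higher and 73, or 0.502%, lower. Sirt1 is among the former, but was kept only through the nicotinamide arrays, so nothing is read from these shares. A limma model with 1 term for each cream, fitted to the 4 arrays, gave Sirt1 a NIC term of 1.57 (SE 0.29, limma adjusted p = 0.687 over all kept symbols). That model has 1 residual degree of freedom, assumes that the creams act additively, and called 0 symbols, 0% of those tested, for NIC, against 767 symbols, or 5.27%, below 0.05 before adjustment. When the variance was allowed to depend on intensity, Sirt1 passed the threshold (SE 0.41, limma adjusted p = 0.0243) among 125 symbols, 0.859% of those tested. The call was lost when the same model was fitted to all 24171 symbols without the filter (limma adjusted p = 0.263), where 54 symbols, 0.223%, were called. Sirt1 rests on a single target with 3 probes, and its readings without nicotinamide lie little above the near-background limit.

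**Figure D1:**
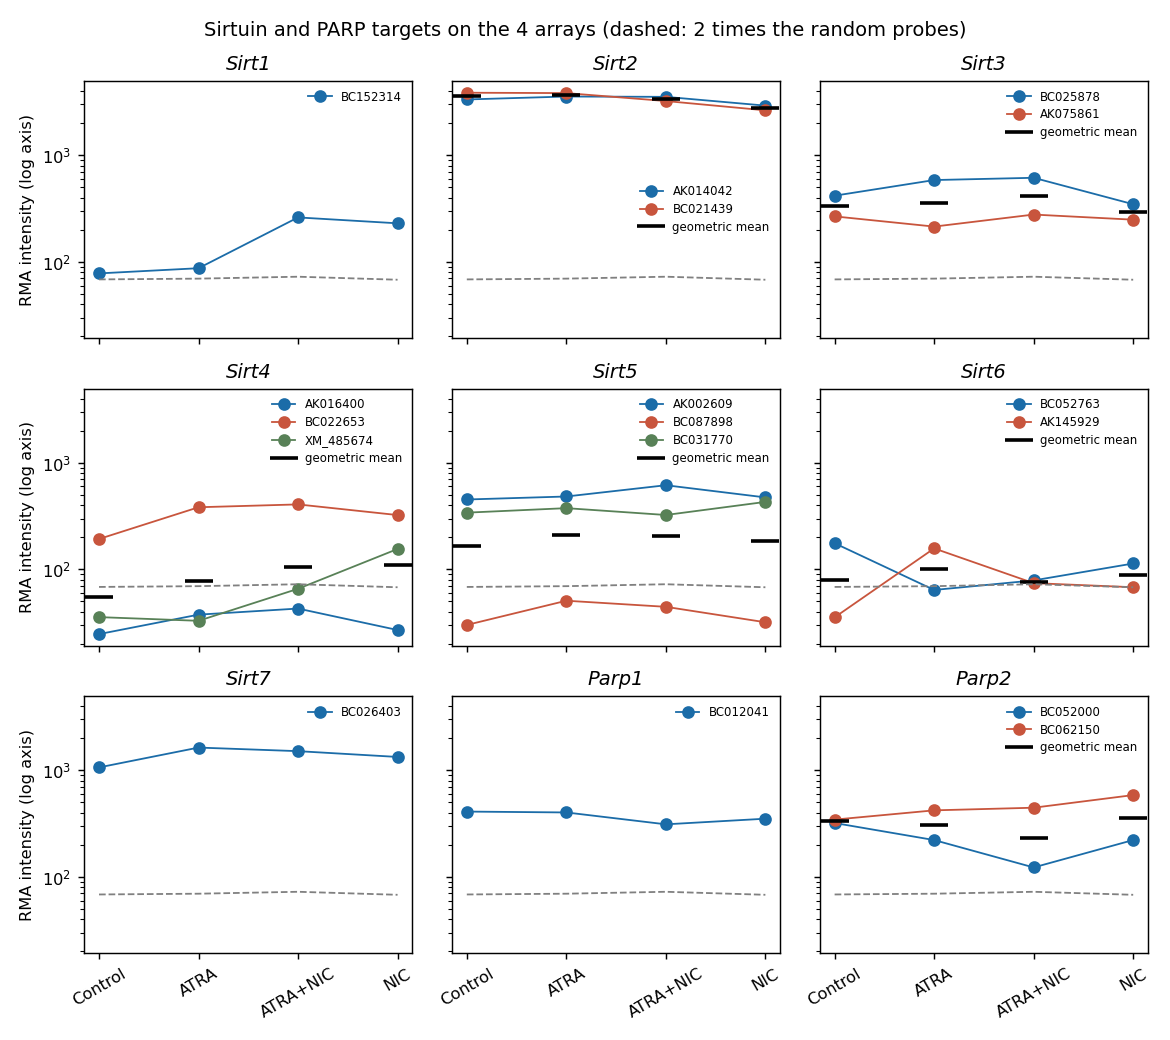
Intensity of each target of the 9 genes (coloured points, logarithmic axis) on the 4 arrays, with the geometric mean of a gene's targets as black bars and 2 times the random probes as a dashed line. Lines join readings of a target. Sirt1 goes from 77.9 and 87.2 without nicotinamide to 261 and 230.0 with it, and the targets of Sirt4, Sirt6 and Parp2 do not run in parallel.

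Differences from Control were compared with those of Sirt1 for 12289 kept symbols, by Euclidean distance over the 3 treated arrays. Clone names, predicted genes, and olfactory and vomeronasal receptors were left out. The 5 nearest symbols were Gabbr2, Tmprss12, Rasal1, Hottip and Igsf21. Gabbr2 is a GABA-B receptor subunit, Tmprss12 a serine protease, Rasal1 a Ras GTPase activator and Hottip a long noncoding RNA of the Hoxa locus. The distances of the 5 ran from 0.25 for Gabbr2 to 0.47 for Igsf21. Gabbr2 read 64.9 on Control, 164 on NIC, 68.9 on ATRA and 228 on ATRA+NIC. On Control all 5 were near background, on ATRA 4 were, on NIC 1 was and on ATRA+NIC 0 were. All 5 passed the filter only through nicotinamide arrays, so their distances rest on differences from Control readings near background.

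Whole skin holds many cell types, and a change in the number of cells of a type cannot be told apart from a change of RNA per cell. Hair shaft markers read higher with nicotinamide when ATRA was matched, and 6 of the 6 measured were above 0 in both NIC differences and 3 were at least 2-fold higher in both. Their summed intensity was 61065 on Control, 126839 on NIC, 7526 on ATRA and 13968 on ATRA+NIC. Tchh alone read 31273, 46098, 6524 and 11162 in the same order, so it was most of the sum on both ATRA arrays. From high to low the hair sums ran NIC, Control, ATRA+NIC and ATRA, and Sirt1 ran ATRA+NIC, NIC, ATRA and Control. Of 12 marker lists, 1 had summed levels on both NIC arrays above both others, the red blood cell list, with 26861 on Control, 44009 on NIC, 34492 on ATRA and 36961 on ATRA+NIC, where 2 of its 3 genes were above 0 in both differences. Melanocyte markers were at least 2-fold higher for 4 of 4 genes in NIC minus Control (median 1.32) and for 0 of 4 in ATRA+NIC minus ATRA (median -0.21), with sums of 3992 on Control, 9631 on NIC, 1900 on ATRA and 1453 on ATRA+NIC. Neutrophil markers were at least 2-fold lower for 2 of 4 kept genes in NIC minus Control and for 1 of 4 in ATRA+NIC minus ATRA, with sums of 15088 on Control, 5068 on NIC, 53541 on ATRA and 52528 on ATRA+NIC. These sums were mostly S100a8 and S100a9, at 7522 and 7360 on Control. In NIC minus Control S100a8 and S100a9 were the 2 lower genes, at -1.72 and -1.51. There Retnlg was at -0.37, Csf3r at 0.02 and Ly6g, not kept, at 0.58. The 1 lower gene in ATRA+NIC minus ATRA was Retnlg, at -1.42. Of the 5 neutrophil genes 2 were near background on Control, 1 on NIC, 0 on ATRA and 1 on ATRA+NIC, while 0 of the 4 melanocyte genes were on any array. The sums of the adipocyte, macrophage and dendritic cell, and T cell lists were lower on both NIC arrays than on both others. Genes below 0 in both nicotinamide differences were 2 of 4 adipocyte, 4 of 6 macrophage and dendritic and 2 of 2 kept T cell genes. Cd68 and Cd207 were above 0 in both, Cd207 at 0.69 and 1.68 with a reading near background on ATRA. Cd8a, a T cell gene that was not kept, was at 0.19 and 0.54. None of the 4 adipocyte, 6 hair shaft or 3 red blood cell genes was near background on any array, while 1 of 6 macrophage and dendritic genes was on ATRA and 1 of 3 T cell genes on ATRA and on ATRA+NIC. The adipocyte sums ran from 5175 to 6931, the macrophage and dendritic sums from 10664 to 21422 and the T cell sums from 603 to 863. The part of these cell types in the Sirt1 difference was not tested.

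Promoter windows of 250 bases before to 50 after the start are shown for Sirt1, the member that differed, for Parp1, which holds 1 of the same motifs, and for Sirt2, which holds none. The sequences are from RefSeq on build GRCm38.p6, and all 9 genes had at least 1 window there. Sirt1 lies on chr10:63338986-63339285, minus strand, Parp1 on chr1:180568641-180568940, plus strand, and Sirt2 on chr7:28766502-28766801, plus strand. Capitals mark matches on either strand to CACGTG, the E-box read by CLOCK, BMAL1, MYC and related factors, and to AGGTCA, the half-site of nuclear receptors such as those of retinoic acid, or its variant with a different first base, GGGTCA.
Sirt1: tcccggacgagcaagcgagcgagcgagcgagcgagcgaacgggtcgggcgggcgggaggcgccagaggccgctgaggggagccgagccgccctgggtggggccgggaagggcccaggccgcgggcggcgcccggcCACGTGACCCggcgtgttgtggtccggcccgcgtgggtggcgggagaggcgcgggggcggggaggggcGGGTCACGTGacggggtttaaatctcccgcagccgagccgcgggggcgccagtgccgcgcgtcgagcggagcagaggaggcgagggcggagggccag
Parp1: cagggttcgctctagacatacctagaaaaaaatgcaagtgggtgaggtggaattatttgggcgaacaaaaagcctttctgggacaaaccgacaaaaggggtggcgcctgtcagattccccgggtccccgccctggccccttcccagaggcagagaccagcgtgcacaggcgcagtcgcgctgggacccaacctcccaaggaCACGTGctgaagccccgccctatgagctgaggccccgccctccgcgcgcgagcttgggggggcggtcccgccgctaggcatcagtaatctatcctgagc
Sirt2: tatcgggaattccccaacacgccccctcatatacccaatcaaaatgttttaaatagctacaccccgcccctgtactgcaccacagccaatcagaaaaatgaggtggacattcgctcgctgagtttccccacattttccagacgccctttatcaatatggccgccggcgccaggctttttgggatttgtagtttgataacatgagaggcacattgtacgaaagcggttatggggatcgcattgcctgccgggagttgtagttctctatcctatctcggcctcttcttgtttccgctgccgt

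Sirt1 held CACGTG 2 times, starting 115 and 43 bases before the start, and in both places it overlapped a GGGTCA match. Parp1 held it 49 and Parp2 179 bases before the start, with no such overlap. Of all 32851 windows 7.15% held CACGTG, 0.594% held it at least 2 times and 0.396% held an overlap with GGGTCA. The motif AGGTCA, in 16.3% of windows, was present in 1 member, Sirt5, and GGGTCA, in 13.7%, in 3 members, Sirt1, Sirt3 and Sirt6. Shares count windows while members are counted as genes, and the 9 genes had 11 windows. Sirt3 and Sirt6 had 2 windows each, with GGGTCA in only 1 of them. The Sirt1 window was 79.0% G and C, against a median of 52.7% over all windows. A match describes these letters only.

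Sirt2, which deacetylates tubulin in the cytosol, differed by at most 1.33-fold between arrays. Its targets read 2641 to 3862 over the arrays, 77.7 to 113 times the random probes. Target AK014042 read 3339 on Control, 2923 on NIC, 3558 on ATRA and 3533 on ATRA+NIC, and BC021439 read 3862, 2641, 3832 and 3228 in the same order. Both targets were lowest on NIC, and the gene's mean differed by -0.37 in NIC minus Control and -0.13 in ATRA+NIC minus ATRA. With ATRA it differed by 0.04 and 0.28. Both targets span chr7:29551801-29573679 on build MM9.

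Sirt7, a nucleolar sirtuin tied to ribosomal RNA transcription, had its lowest reading on Control. It read 1065 on Control, 1336 on NIC, 1636 on ATRA and 1514 on ATRA+NIC, at 31.1 to 47.0 times the random probes. The ATRA differences were 0.62, or 1.54-fold, without nicotinamide and 0.18 with it. The nicotinamide differences were 0.33 and -0.11, of opposite sign. Its limma ATRA term of 0.40 (SE 0.31, limma adjusted p = 0.819) had the lowest adjusted p of the members for ATRA. Its single target, BC026403, spans chr11:120479684-120486281 on MM9.

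The mitochondrial sirtuins are Sirt3, the main deacetylase of mitochondrial enzymes, Sirt4, which acts on glutamate dehydrogenase and pyruvate dehydrogenase, and Sirt5, which removes succinyl, malonyl and glutaryl groups. Sirt3 averaged 334 on Control, 294 on NIC, 354 on ATRA and 413 on ATRA+NIC. It was higher in both ATRA differences, at 0.08 and 0.49, and of opposite sign in the nicotinamide differences, at -0.18 and 0.22. BC025878 read 418 on Control, 347 on NIC, 585 on ATRA and 615 on ATRA+NIC, and AK075861 read 267, 249, 214 and 278 in the same order. BC025878 was thus higher on both ATRA arrays, while AK075861 was lowest on ATRA and highest on ATRA+NIC. The targets went apart for ATRA alone, at 0.49 for BC025878 and -0.32 for AK075861, which the annotation calls isoform B.

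Sirt4 averaged 55.4 on Control, 110.7 on NIC, 78.0 on ATRA and 104.7 on ATRA+NIC. NIC minus Control was 0.999, just under 2-fold, and ATRA+NIC minus ATRA was 0.43. The targets gave these means unequally. BC022653 read 193 on Control, 323 on NIC, 383 on ATRA and 407 on ATRA+NIC, a NIC minus Control difference of 0.75. The predicted transcript XM_485674 read 35.7, 155, 32.9 and 65.8 in that order, near background on all arrays but NIC, and was at least 2.27-fold higher on NIC than on Control, with 2 times the random probes as the floor. AK016400 was near background on all 4 arrays, between 24.7 and 42.9. Against Control all 3 targets were higher on ATRA+NIC, by 0.80 to 1.08, while in ATRA+NIC minus NIC they differed in sign.

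Sirt5 averaged 167 on Control, 187 on NIC, 210 on ATRA and 207 on ATRA+NIC. Its target BC087898, with an annotated span that ends at 43476045 on chromosome 13 while the spans of the other targets end at 43490572, read 30.1 to 50.8 and was near background on all arrays. AK002609 read 453 on Control, 474 on NIC, 483 on ATRA and 616 on ATRA+NIC, and BC031770 read 341, 430, 375 and 324. In ATRA minus Control all 3 targets were above 0, at 0.09 to 0.76, and in ATRA+NIC minus NIC they ranged from -0.41 to 0.48. Both upper ends were of BC087898, the target near background. The Sirt5 means were 0.33 and 0.15 in these differences. They were 0.12 and -0.01 when only targets at least 2 times the random probes were averaged, an alternative chosen after seeing the data.

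Sirt6, a chromatin deacetylase of telomeres and DNA repair, had targets that contradicted each other. BC052763 (chr10:81084531-81090303) read 176 on Control, 114 on NIC, 64.1 on ATRA and 78.8 on ATRA+NIC. AK145929 (chr10:81084540-81090065) read 35.5 on Control, 68.0 on NIC, 157 on ATRA and 74.3 on ATRA+NIC. On ATRA against Control the former was at least 2.53-fold lower and the latter at least 2.30-fold higher, taking 2 times the random probes for the reading near background. The mean of both was 79.0 on Control, 87.9 on NIC, 100.5 on ATRA and 76.5 on ATRA+NIC, and lies between targets that differ in direction. Each target was near background on 1 array, BC052763 on ATRA and AK145929 on Control.

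Parp1, the main DNA break sensor of the family, read 410.3 on Control, 352 on NIC, 403 on ATRA and 312 on ATRA+NIC, at 8.59 to 12.0 times the random probes. It was lower in both nicotinamide differences, at -0.22 and -0.37, and in both ATRA differences, at -0.03 and -0.18. The array with both creams was lowest, at -0.40 against Control, and the limma NIC term was -0.30 (SE 0.29, limma adjusted p = 1.00). Its single target spans chr1:182499105-182531385 on MM9.

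Parp2, which shares the DNA break response, averaged 333 on Control, 361 on NIC, 306 on ATRA and 234 on ATRA+NIC. Both ATRA differences were below 0, at -0.12 and -0.62. The complete transcript BC062150 read 345 on Control, 586 on NIC, 421 on ATRA and 446 on ATRA+NIC. BC052000, annotated with an apparent retained intron, read 321 on Control, 222 on NIC, 222 on ATRA and 123 on ATRA+NIC. Every treated array was thus above Control for the complete transcript and below it for the other. In ATRA+NIC minus Control they stood at 0.37 and -1.38, a gap of 1.76 where the median gap over 6817 kept symbols with several targets was 0.73. Both targets span chr14:51427620-51440975 on MM9, so the spans do not separate them.

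**Figure D2:**
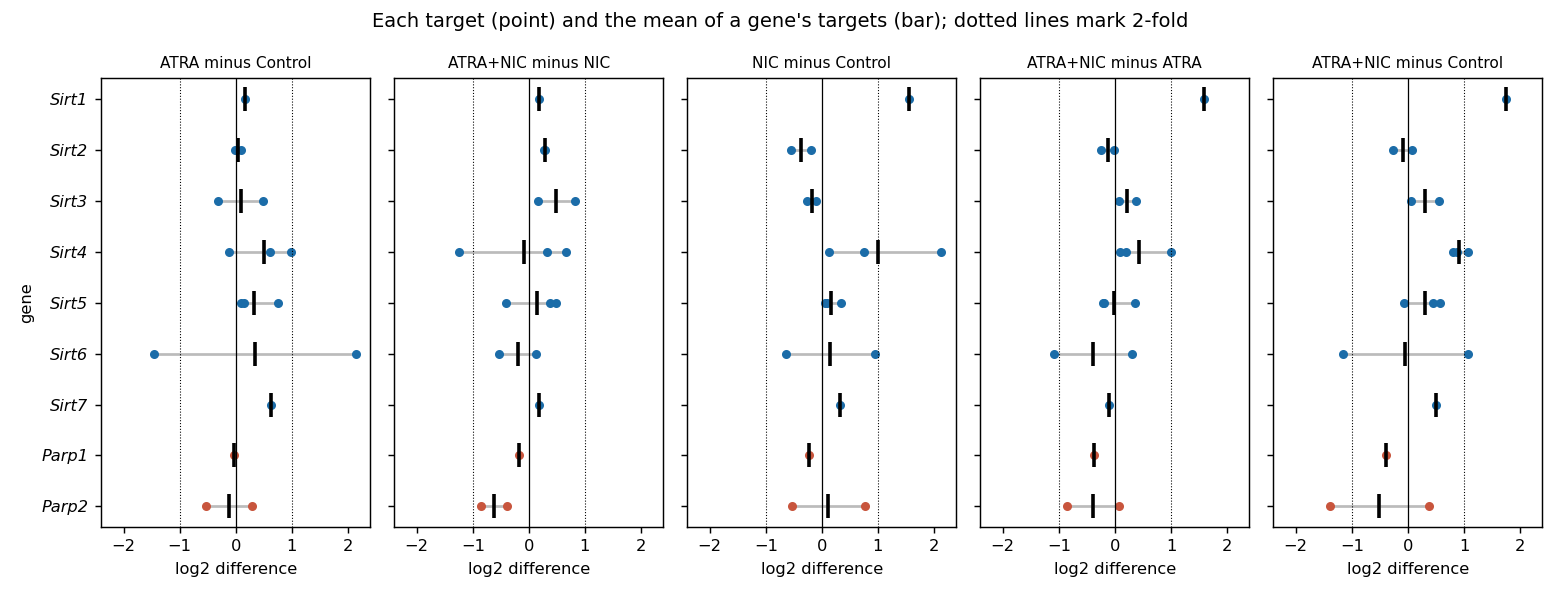
Log2 differences of each target (points) and of the mean of a gene's targets (black bars) in the 5 differences, with dotted lines at 2-fold. Sirt1 lies at 1.56, 1.58 and 1.74 in the 3 differences with nicotinamide on 1 side only, while the Sirt6 targets lie on opposite sides of 0 in ATRA minus Control, each with a reading near background.

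Of the 8 kept genes none was at least 2-fold apart with ATRA alone against Control, where 4.11% of kept symbols were higher and 5.48% lower, 9.59% together. The same held for ATRA on top of nicotinamide, where 6.92% were higher and 7.59% lower, 14.5% together. For nicotinamide alone against Control 1 of the 8 was higher and 0 lower, while 5.33% of kept symbols were higher and 5.36% lower, 10.7% together. For nicotinamide on top of ATRA 1 was higher and 0 lower, while 5% were higher and 4.26% lower, 9.26% together. With both creams against Control 1 was higher, at 1.74, and 0 lower, while 5.81% were higher and 7% lower, 12.8% together. The gene was Sirt1 each time. With 8 genes, 0 or 1 is near these shares. The other 7 lay between -0.12 and 0.62 for ATRA alone, -0.62 and 0.49 for ATRA on top of nicotinamide, -0.37 and 0.999 for nicotinamide alone, and -0.39 and 0.43 for nicotinamide on top of ATRA.

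For ATRA 7 of the 8 had the same sign in both differences, 5 above 0 and 2 below it, Parp1 and Parp2. Among all kept symbols 54.4% had the same sign. The count is not firm. It was 6 of 8 after centring, where Parp1 lost its common sign, with cyclic loess, where Sirt2 did, with the brightest target, where Sirt2 and Parp2 did, and with only targets at least 2 times the random probes, where Sirt5 did. Of the 6 genes with several targets, 1 had all targets on the same side of 0 for ATRA alone and 3 for ATRA on top of nicotinamide. Hair shaft markers were at least 2-fold lower for 6 of 6 genes in both ATRA differences and neutrophil markers at least 2-fold higher for 3 of 4 kept genes in both. Their part in the members' values was not tested. The medians of the 8 were 0.12 and 0.17, against 0.06 and -0.005 over all kept symbols. None of the 8 was at least 2-fold apart in both ATRA differences, where 0.832% of kept symbols were higher and 1.89% lower in both. For nicotinamide 4 of the 8 had the same sign, Sirt1 and Sirt4 above 0 and Sirt2 and Parp1 below it, against 50.04% of all kept symbols. Both genes above 0 were kept only through the nicotinamide arrays, so this count supports nothing. In limma 0 of the 8 were called for ATRA, where 90 symbols, 0.618%, were, and 0 for NIC. Before adjustment 0 of the 8 were below 0.05 for ATRA, where 8.16% of symbols were, and 1, Sirt1, for NIC.

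**Figure D3:**
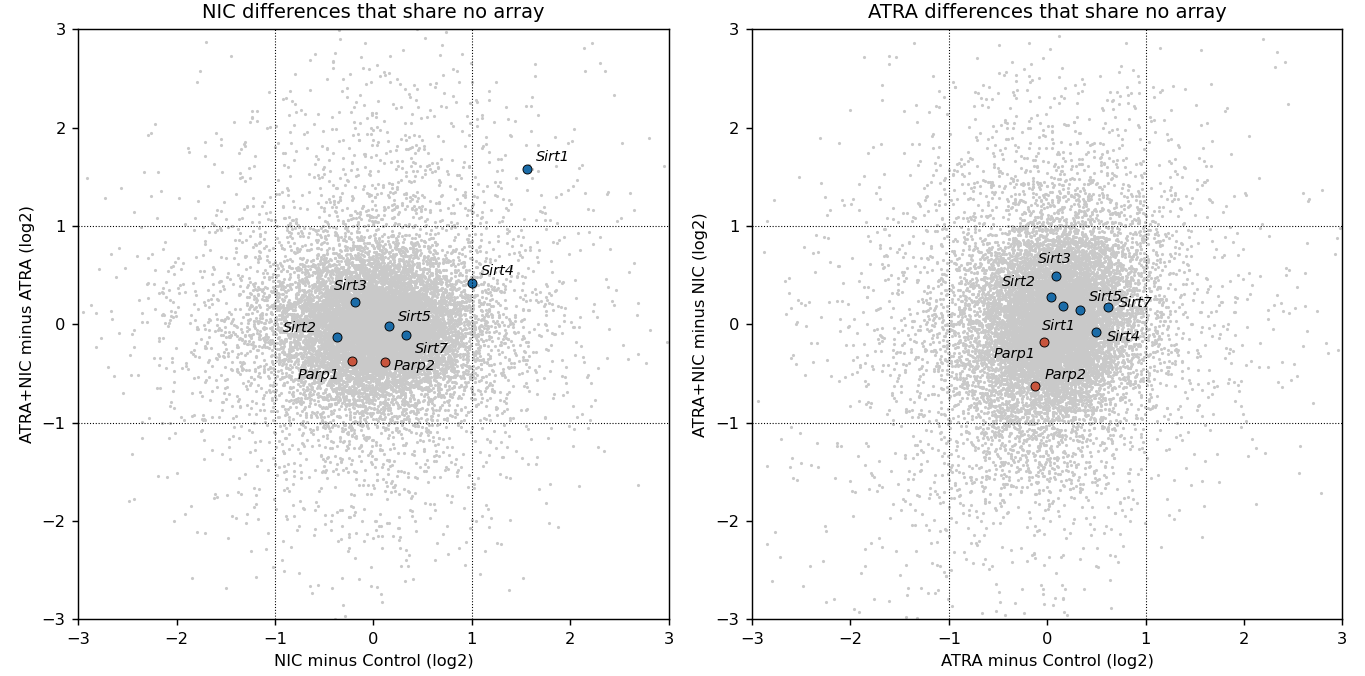
Log2 differences of kept symbols (grey points) and of the 8 kept members (blue sirtuins, red PARPs) for nicotinamide (left) and ATRA (right), each panel setting 2 differences that share no array against each other, with dotted lines at 2-fold. Axes end at 3, which leaves 69 and 189 symbols outside. Sirt1 lies at 1.56 and 1.58 in the left panel, and no member passes 2-fold in the right one.

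Genes around these enzymes were read from 6 lists, other PARPs, ADP-ribose removal and base excision repair, NAD synthesis and clearance, other NAD-cleaving enzymes, zinc-dependent histone deacetylases, which nicotinamide does not inhibit, and sirtuin regulators, partners and substrates. Of 84 measured genes 70 were kept. In NIC minus Control 1 of the 70 was at least 2-fold higher and 0 lower, or 1.43%, against 10.7% of all kept symbols, and in ATRA+NIC minus ATRA 0 were, against 9.26%. The gene was Nmnat2. For ATRA alone against Control 3 were higher and 1 lower, or 5.71%, against 9.59% of all kept symbols, and for ATRA on top of nicotinamide 2 were higher and 1 lower, or 4.29%, against 14.5%. In limma 0 of the 70 were called for ATRA, against 0.618% of all kept symbols, and 0 for NIC, against 0%, and 0 were at least 2-fold the same way in both differences of a pair.

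Among other PARPs, 12 kept, the medians were 0.06 and -0.11 in the nicotinamide differences. The most different was Zc3hav1, an antiviral RNA-binding member without catalytic activity, at 0.46 and 0.80 for nicotinamide and 0.52 and 0.85 for ATRA. It read 71.0 on Control, 97.9 on NIC, 102 on ATRA and 177 on ATRA+NIC, so it stood highest under both creams. Tiparp, an ADP-ribosyl transferase induced by the aryl hydrocarbon receptor, and Parp16, an enzyme of the endoplasmic reticulum, were 2 of the 3 genes past 2-fold for ATRA alone, at 1.00 and 1.08, but were at 0.04 and -0.11 on top of nicotinamide. ADP-ribose removal and repair partners, 12 kept, had nicotinamide medians of -0.23 and -0.20, and the most different was Apex1, the abasic site endonuclease, at 0.91 and -0.20 for nicotinamide and 0.53 and -0.58 for ATRA.

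Zinc-dependent histone deacetylases, 8 kept, had medians of 0.13 and -0.11 for nicotinamide and 0 at least 2-fold apart in any difference. Hdac8 differed most with nicotinamide, at -0.80 and -0.32, and Hdac5 most with ATRA, at -0.18 and -0.65. Of 22 kept regulators, partners and substrates of sirtuins, Ccar2, which binds and inhibits Sirt1, was at 0.26 and -0.17 for nicotinamide, Clock at -0.19 and 0.18 and Arntl, the gene of BMAL1, at 0.20 and 0.17. Rela, the NF-kappaB subunit that Sirt1 deacetylates, differed most with nicotinamide, at -0.85 and 0.24. With ATRA it was Cps1, the mitochondrial enzyme that Sirt5 activates in liver, at 0.94 and 0.91, reading 3015 on Control, 3727 on NIC, 5800 on ATRA and 7021 on ATRA+NIC. The acetyltransferase Ep300 was the gene past 2-fold lower for ATRA alone, at -1.11, and was at -0.43 on top of nicotinamide. Ccar2, Clock, Arntl, Ep300, Tiparp and Parp16, with Nnmt, Qprt and Kmo of the NAD list, were singled out after their values were seen.

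NAD synthesis and clearance, 11 kept, had medians of 0.06 and 0.12 for nicotinamide and 0.22 and 0.41 for ATRA. Its most different gene was Nmnat2, an NAD synthase of neurons, at 1.83 and -0.71 for nicotinamide, which read 45.9 on Control, 163 on NIC, 76.5 on ATRA and 46.9 on ATRA+NIC, near background on Control and ATRA+NIC. For ATRA it was at 0.74 and -1.80, so its differences past 2-fold are taken against readings near background. Nnmt, which methylates nicotinamide for its clearance, read 192 on Control, 367 on NIC, 409 on ATRA and 540.0 on ATRA+NIC. It was lowest on Control and highest with both creams, at 0.94 and 0.40 for nicotinamide and 1.09 and 0.56 for ATRA. Qprt and Kmo, enzymes of NAD synthesis from tryptophan, were past 2-fold higher for ATRA on top of nicotinamide, at 1.32 and 1.13, and stood at -0.04 and 0.66 for ATRA alone. Of other NAD-cleaving enzymes, 5 kept, Art4 differed most with nicotinamide, at 0.22 and 0.72, and Bst1, an ADP-ribosyl cyclase, most with ATRA, at 0.63 and 0.51.

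**Figure D4:**
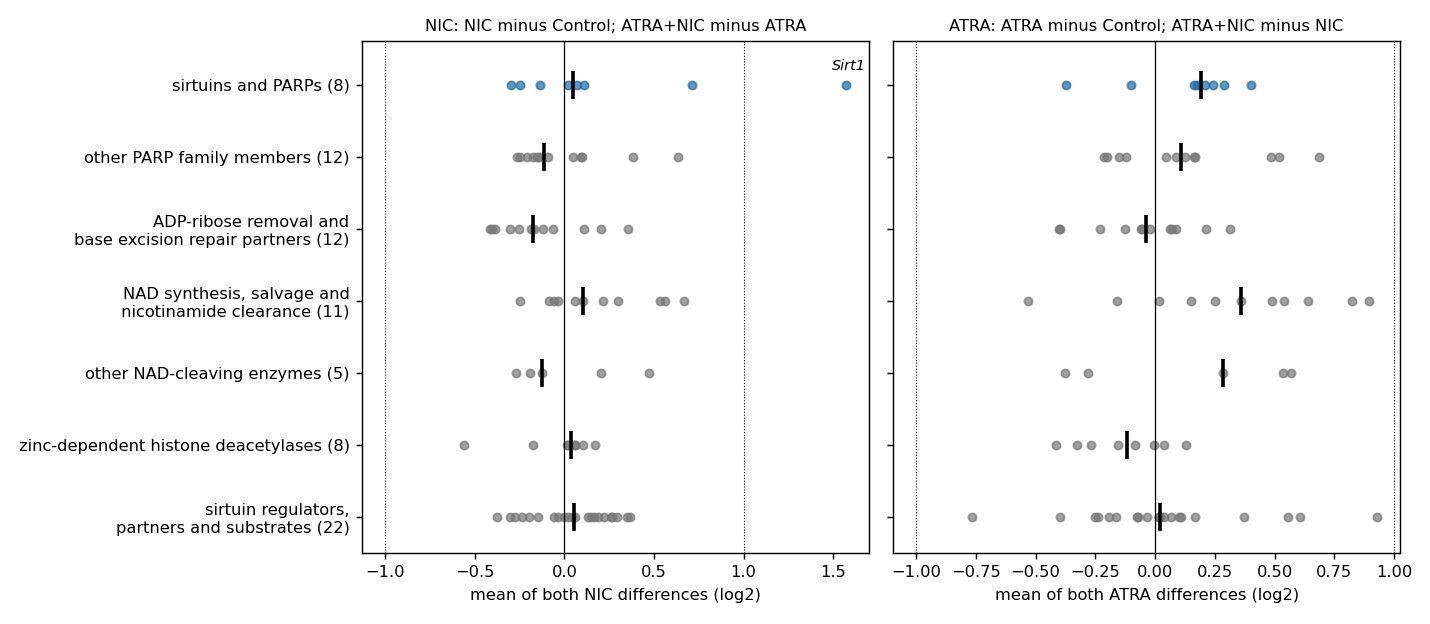
Mean of both nicotinamide differences (left) and of both ATRA differences (right), on the log2 scale, for each kept gene of the sirtuin and PARP group (blue) and of the 6 lists (grey), with black bars at list medians, dotted lines at 2-fold and the number of genes in parentheses. Sirt1, at 1.57, is the only gene shown past 2-fold.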

How the data were processed

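Total skin RNA was labelled with Cy3 and hybridised to NimbleGen expression arrays, per the labels' protocols, with 1 array for each of 4 groups. The authors deposited intensities per target on the linear scale, named RMA in the file names, and the annotation in the files is on MM9. The normalisation software is not given in the sources used here. As an alternative, the value table of the series was used, which holds 24323 of the 44170 targets, and its intensities matched those per array within a relative 9.0e-07. A further 8 columns of values, counted over the 4 arrays together, were not used.

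Log2 was taken of the intensities and targets of a symbol were averaged. Symbols were updated by gene ID for 39057 targets. Differences between arrays have no test. The additive fit used limma 3.58.1 in R 4.3.3 (lmFit and eBayes, terms ATRA and NIC) with Benjamini-Hochberg adjustment over the 14552 kept symbols at 0.05. It was also run on simulated data with additive nicotinamide effects and no ATRA effect, which cannot check whether the creams act additively. The p-values of the fit hold only where both creams act additively. No group has replicate arrays, so the residual is how far the differences for a cream with and without the other lie apart. Its variance is moderated over the symbols fitted, and that gap may be technical. All 9 genes were named with every target. List genes were named if at least 2-fold the same way in both differences that share no array, otherwise the one with the largest mean size of both differences. The genes, lists and rules were chosen with earlier results of these data known. Hdac3 was not analysed here. Alternatives were centring, cyclic loess, a pseudocount of 32, the brightest target, no filter, a filter at percentile 75, the value table, a 1.5-fold limit, an intensity trend and, added after seeing the data, only targets at least 2 times the random probes, and the trend with no filter.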

Additional observations from a re-analysis of the deposited data

Results flagged for a closer look

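The following kept members had effects of opposite sign in the pair of differences for the same cream. The difference between the effects was not tested, since each rests on 1 array per group. For nicotinamide, Sirt3 was at -0.18 without ATRA and 0.22 with it, 0.41 apart, Sirt5 at 0.16 and -0.02, -0.18 apart, Sirt7 at 0.33 and -0.11, -0.44 apart, and Parp2 at 0.12 and -0.39, -0.50 apart. For ATRA, Sirt4 was at 0.49 without nicotinamide and -0.08 with it, -0.57 apart. All of these effects were under 2-fold. Sirt6, which was not kept and has targets that differ in direction, also had means of opposite sign for both creams, at 0.35 and -0.20 for ATRA and 0.15 and -0.39 for nicotinamide.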

How the results depend on the processing

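Sirt1 stayed higher with nicotinamide under each alternative that kept it, at 1.25 to 1.59 in NIC minus Control and 1.30 to 1.66 in ATRA+NIC minus ATRA, and its limma adjusted p ran from 0.285 with the value table to 0.820 with the brightest target, apart from the intensity trend, where 1 member was called for NIC, at 0.0243, and the trend without the filter, chosen after seeing the data, where 0 were, at 0.263. Because Sirt1 has 1 target, some alternatives could not change its differences. The brightest target, the value table and the limit to targets at least 2 times the random probes returned the same 1.56 and 1.58. The counts of members at least 2-fold apart moved as follows. In ATRA minus Control the count of 0 became 1 with the brightest target or the value table, both through a Sirt6 target, and 1 at 1.5-fold, which was Sirt7. In ATRA+NIC minus NIC it became 1 at 1.5-fold, which was Parp2. In NIC minus Control the count of 1 became 2, with Sirt4, after centring, at 1.5-fold and, in an alternative chosen after seeing the data, with only targets at least 2 times the random probes averaged. In ATRA+NIC minus Control it became 3, with Sirt4 and Sirt6, by the brightest target or the value table, and 2 at 1.5-fold. At or above percentile 75 of brightness 2 members were left, Sirt2 and Sirt7, and the counts of the 3 differences with nicotinamide on 1 side only became 0. Of 250 member differences recomputed, 2 moved by at least the noise SD of their brightness decile, which was 0.48 for Parp2. It was wider for dim genes, at 0.69 for Sirt4. A Sirt4 shift from 0.49 to 0.99 in ATRA minus Control, with the brightest target, was thus not counted as moved. That SD was estimated from how far the 2 differences for a cream lie apart, scaled down to a single difference. The 2 differences that moved were of Parp2 with the brightest target, at 0.76 in NIC minus Control and 0.37 in ATRA+NIC minus Control. A turned sign was looked for only in differences past 2-fold, which were all of Sirt1, and 0 turned. Differences under 2-fold did turn sign with the brightest target. Sirt4 went from -0.08 to 0.33 in ATRA+NIC minus NIC, and Parp2 from -0.51 to 0.37 in ATRA+NIC minus Control. Many of the 250 could not move, since a filter changes no value and some genes have 1 target. No paired analysis was possible because each group has 1 array. Signal over background limits Sirt4 and Sirt6, the Sirt5 target BC087898, and Sirt1 on the arrays without nicotinamide.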

Other observations

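Hdac2 and Sarm1, singled out after their values were seen, were too dim to be kept and read higher on both nicotinamide arrays. Hdac2, a class I histone deacetylase, read 29.4 on Control, 50.2 on NIC, 35.4 on ATRA and 90.5 on ATRA+NIC. Sarm1, an NAD-cleaving enzyme of axons, read 32.9, 52.7, 33.2 and 63.9 in that order, near background on each array.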
